A study of Bos taurus with 30 samples.

Results

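Described here are the mature miRNAs miR-10a, miR-10b, miR-196a and miR-196b, which are encoded inside the HOX gene clusters, in the arcuate nucleus (ARC) of the hypothalamus of 30 dairy bull calves. The members were taken by name, as the rows of the deposited miRNA table for bta-miR-10a, bta-miR-10b, bta-miR-196a and bta-miR-196b, where the prefix bta marks Bos taurus. These were 4 of the 1030 rows of the table, of which 863 had a read in at least 1 library. Each miRNA had a single row with no arm given in its name.

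HOX genes are transcription factors that set the identity of body segments along the head-to-tail axis, and they lie in 4 clusters, HOXA to HOXD. The miR-10 and miR-196 genes sit among them, are transcribed with their neighbours and are known to repress HOX transcripts. They are best known from the trunk, limbs, spinal cord and hindbrain. The forebrain, from which the hypothalamus develops, lies in front of the domain where HOX clusters are usually active. Within each pair, the mature sequences are nearly identical, and miR-10a and miR-10b share their seed, the stretch of the miRNA that pairs with target transcripts.

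In the RefSeq annotation, MIR10A (gene 791006) lay between HOXB5 and HOXB4, within the span listed for HOXB3. MIR10B (gene 791051) lay in HOXD4, with HOXD3 and HOXD8 on its sides. miR-196a has a pair of genes, MIR196A-1 (gene 100313014) in HOXB9 and MIR196A-2 (gene 100313367) between HOXC9 and HOXC10, and reads of the mature form cannot be assigned to either. MIR196B (gene 100313452) lay between HOXA10 and HOXA9. MIR615 (gene 100313387), another miRNA gene of these clusters, lay in HOXC5. The table was built on assembly ARS-UCD1.2 and this annotation on a later assembly, so positions are not given.

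All calves were Holstein-Friesian bulls, and all were euthanised at 12 weeks of age with intravenous sodium pentobarbitone before the tissue was taken. From 2 to 12 weeks of age, 15 calves were on the high plane of nutrition (HI), with 1.5 kg of milk replacer in 10 litres daily and concentrates offered freely. The other 15 were on the moderate plane (MOD), with 0.5 kg of milk replacer in 4 litres and 0.5 kg of concentrates daily. The question of the comparison was whether miRNAs of the ARC, the region that senses nutritional state and governs reproductive development, differ with early-life diet. Each library came from the ARC dissected from 1 calf, so each value is a mixture over all cell types in the piece. Fewer cells of a type and less RNA per cell cannot be told apart in such samples.

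The libraries held between 6291376 and 21083250 counted miRNA reads (median 8635354), with 21 shallower libraries (12 HI, 9 MOD) and 9 deeper ones (3 HI, 6 MOD). Neuronal miRNAs, the list of miR-124a, miR-9-5p, miR-128, miR-137, miR-138 and miR-153 among them, were present in every library, with a summed level of 15043 to 87561 counts per 1000000 (CPM). A list of pituitary and other epithelium markers (miR-375, the miR-200 family and miR-182, miR-183 and miR-96) separated 9 calves (5 HI, 4 MOD), with summed levels of 5853 to 91145 CPM, from the other 21, at 157 to 1638 CPM. A second division, seen in earlier results of these data and described here without a test, set apart the 9 calves with the lowest animal codes (7 HI, 2 MOD). What the codes stand for is not given in the sources used here, and 4 calves belonged to both sets. All 9 lowest codes were among the shallower libraries. The MOD calf A73759 stood apart in the members themselves, and the diet comparisons are given with and without it.

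The miR-10 members were read in all 30 libraries. miR-10a, the HOXB miRNA, had a median of 94.3 CPM and between 495 and 10374 reads per library (median 849), and miR-10b, the HOXD miRNA, had a median of 224.8 CPM and between 536 and 26598 reads (median 2521). By median level, miR-10b ranked 149th and miR-10a 205th in the table, and they held 0.0315% and 0.0114% of the summed values. Counting error at the lowest read numbers came to 0.065 and 0.062 on the log2 scale (SD), below the spread between calves. Error from library preparation was not measured.

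In HI calves, the miR-10a level was 87.5 CPM in A13745, 85.7 in A17855, 87.8 in A27823, 60.9 in A27848, 103.2 in A27864, 68.4 in A31979, 104.1 in A37824, 136.7 in A37840, 148.5 in A42931, 75.6 in A47858, 104.5 in A77860, 129.8 in A81983, 82.0 in A92928, 92.9 in A93744 and 83.9 in A93760. In MOD calves, it was 68.3 CPM in A12937, 95.8 in A21978, 100.04 in A38765, 99.4 in A41971, 104.3 in A47825, 90.7 in A47874, 96.7 in A51980, 113.4 in A57826, 76.7 in A57867, 101.9 in A61965, 85.2 in A61973, 649.8 in A73759, 66.4 in A87886, 174.1 in A97821 and 86.8 in A97854. The diets overlapped between 66.4 and 148.5 CPM. HI calf A27848 lay below every MOD calf, and MOD calves A97821 and A73759 lay above every HI calf, with A73759 far above A97821.

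In HI calves, the miR-10b level was 266.6 CPM in A13745, 646.1 in A17855, 380.8 in A27823, 301.7 in A27848, 320.8 in A27864, 509.6 in A31979, 591.1 in A37824, 167.8 in A37840, 309.6 in A42931, 288.8 in A47858, 121.0 in A77860, 99.5 in A81983, 103.8 in A92928, 118.8 in A93744 and 93.1 in A93760. In MOD calves, it was 333.9 CPM in A12937, 489.3 in A21978, 180.7 in A38765, 1003.8 in A41971, 219.2 in A47825, 158.0 in A47874, 115.5 in A51980, 135.2 in A57826, 254.1 in A57867, 136.9 in A61965, 107.0 in A61973, 1665.9 in A73759, 67.9 in A87886, 230.3 in A97821 and 129.5 in A97854. The MOD calves held both the highest values, in A73759 and A41971, and the lowest, in A87886, so that the HI range lay wholly inside the MOD range.

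**Figure D1:**
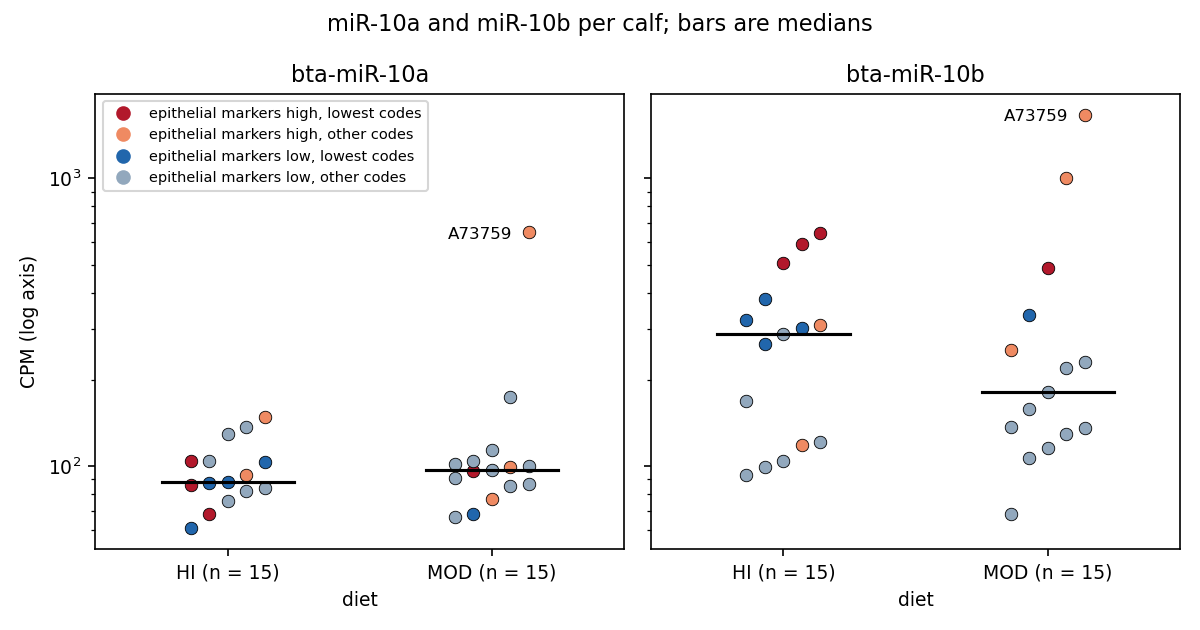
CPM of miR-10a (left) and miR-10b (right) on a log axis in 15 HI and 15 MOD calves, 1 point per calf, coloured by epithelial marker class and animal code class, with bars at the group medians. The diets overlap for both miRNAs, calf A73759 is the highest MOD point in each panel, and miR-10b is spread far more widely than miR-10a.

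The miR-10 pair differed in how much they varied between calves. The SD of the log2 level was 0.61 for miR-10a and 1.09 for miR-10b, against a median of 0.37 over the 476 miRNAs that passed the filter on low values. Without A73759, the SD of miR-10a was 0.34, at percentile 43.9 of the tested miRNAs, and that of miR-10b was 0.97, at percentile 94.1. The highest calf exceeded the lowest 10.7-fold for miR-10a and 24.5-fold for miR-10b, and 2.86-fold and 14.8-fold without A73759. miR-10a was thus an ordinary miRNA in its spread once A73759 was left out, whereas miR-10b stayed among the most variable.

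Among the 4 members, miR-10b was highest in CPM, followed by miR-10a, with miR-196a and miR-196b at or near 0. The order is one of reads, since amounts of different miRNAs were not measured. miR-10b exceeded miR-10a in 29 of 30 calves, by 1.199 on the log2 scale on average, or 2.30-fold (permutation test of signs, 2-sided, p = 1e-05, the smallest the resamples can give). The ratio of miR-10b to miR-10a ran from 0.767 in A81983 to 10.1 in A41971, with a median of 1.95, and was 2.56 in A73759. Among the 9 lowest codes this ratio was 3.05 to 7.54 (median 4.96), and among the other 21 calves 0.767 to 10.1 (median 1.32). The order was kept within the 16 calves that had neither low codes nor high epithelial markers, with a mean log2 difference of 0.47 (permutation test of signs, p = 0.00044).

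**Figure D2:**
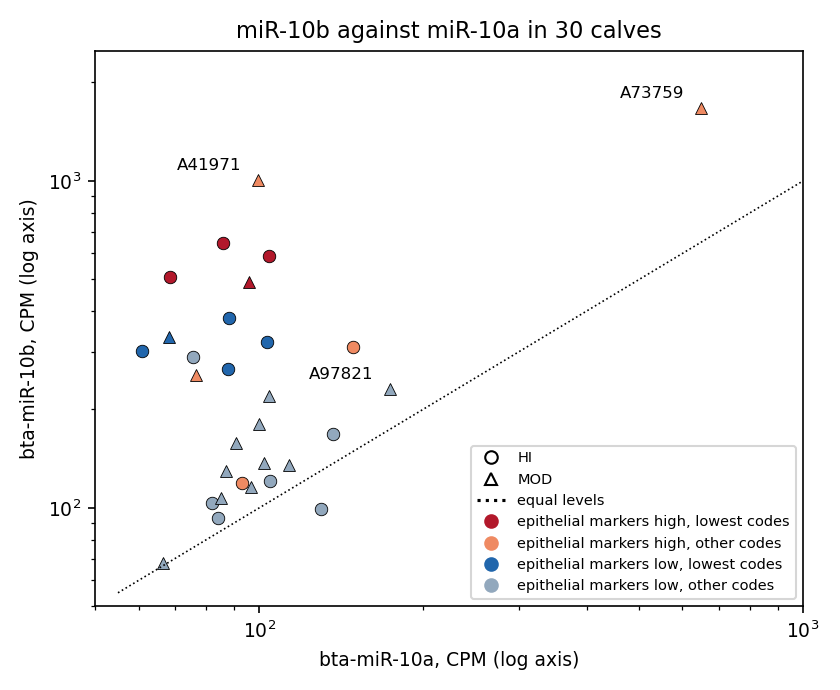
miR-10b against miR-10a in CPM, both axes log, 1 point per calf, circles for HI and triangles for MOD, with a dotted line at equal levels. Of 30 calves, 29 lie above the line, most of them in a narrow band of miR-10a over a wide range of miR-10b, and A73759 is the one calf high in both.

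The relation between the levels of the pair rested on A73759. Over 30 calves, the correlation of their log2 levels was r = 0.39 (permutation p = 0.0354, adjusted p = 0.155 over 25 relations) and rho = 0.08 (permutation p = 0.661, adjusted p = 0.788). Without the 2 calves farthest from the median of miR-10a, r was -0.06, and without A73759 alone it was -0.04. Within the 21 shallower libraries, r was -0.11, and within the 9 deeper ones, which include A73759, it was 0.85, or 0.27 without that calf. In the 21 calves with other than the lowest codes it was 0.67 (permutation p = 0.00775), or 0.26 without A73759.

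Neither miR-10a nor miR-10b showed a diet difference larger than the spread between calves. The level of miR-10a was 60.9 to 148.5 CPM in HI (median 87.8, mean 96.8 ± 24.99 SD, n = 15) and 66.4 to 649.8 CPM in MOD (median 96.7, mean 134 ± 144.9 SD, n = 15). Its log2 fold change, HI against MOD on the log2(CPM + 0.25) scale, was -0.19 (SE 0.22, limma adjusted p = 0.982). Of the HI calves, 6 of 15 lay above the MOD median, and 10 of 15 MOD calves lay above the HI median. The log2 difference was -0.01 without A73759 (permutation p = 0.951). In the count tests, run without HI calf A31979, the fold change was -0.43 in edgeR's quasi-likelihood test (adjusted p = 0.996) and 0.029 in DESeq2 (adjusted p = 0.998).

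For miR-10b, the HI level was 93.1 to 646.1 CPM (median 288.8, mean 287.9 ± 180.9 SD, n = 15) and the MOD level 67.9 to 1665.9 CPM (median 180.7, mean 348.5 ± 432.5 SD, n = 15). The medians and the means of CPM had opposite orders, and the log2 fold change was 0.06 (SE 0.39, limma adjusted p = 0.985). Of the HI calves, 9 of 15 lay above the MOD median, and 4 of 15 MOD calves lay above the HI median. Without A73759, the MOD mean was 254.4 ± 241.6 CPM (SD, n = 14) and the log2 difference 0.27 (permutation p = 0.457). The sign of the fold change was not stable. It was -0.50 in limma without the 9 lowest animal codes and -0.35 in edgeR's quasi-likelihood test, which was run without HI calf A31979. Leaving out that calf alone in limma gave -0.014.

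None of the members was called, that is, reached an adjusted p below 0.1 with a change of more than 1.5-fold. The background was 0 of 476 tested miRNAs, or 0%, in limma, with 21 at an unadjusted p below 0.05 (8 higher and 13 lower in HI). On whole reads recovered from 29 libraries, edgeR's quasi-likelihood test called 0, with 16 at an unadjusted p below 0.05, and DESeq2 called 1, with 19. That 1 was not a member. The members' count of 0 was the same as that of the whole table in limma and edgeR, and 1 below it in DESeq2. Of the members, miR-10a and miR-10b passed the filter, and miR-196a and miR-196b did not. With no filter, when all 4 members were among 863 tested miRNAs, limma again called 0.

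The diets were also compared within the sets of libraries, as HI minus MOD differences of the mean log2 level with exact permutation tests. For miR-10a, the difference was 0.06 in shallower libraries (p = 0.647) and -0.54 in deeper ones (p = 0.548), where A73759 was 1 of 6 MOD calves and the value without it was -0.10 (exact p = 0.75). For miR-10b, it was 0.32 in shallower libraries (p = 0.514), which included all 9 lowest codes (7 HI, 2 MOD). It was -0.46 in deeper ones (p = 0.667), turning to 0.06 without A73759 (exact p = 0.929). In the calves other than those with the lowest codes (8 HI, 13 MOD), it was -0.11 for miR-10a (p = 0.814) and -0.50 for miR-10b (p = 0.344). Without A73759, 1 of the 13, these were 0.10 (exact p = 0.559) and -0.25 (exact p = 0.568). Among the 9 lowest codes, with 2 MOD calves, it was 0.05 (p = 0.861) and 0.02 (p = 0.972). In epithelial-marker-high calves, it was -0.61 for miR-10a (exact p = 0.508) and -0.86 for miR-10b (exact p = 0.278). A73759 was 1 of the 4 MOD calves there, and without it they were 0.10 (exact p = 0.75) and -0.42 (exact p = 0.643). In the 21 low calves the differences were -0.05 (exact p = 0.773) and 0.31 (exact p = 0.324). No difference passed in any set, with every p at 0.972 after adjustment over the 16 comparisons, and from 0.900 to 0.929 after adjustment over the 6 without A73759. The direction was not the same in all sets for either miRNA.

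The spread of miR-10b was laid out along the marker class and the code class of the calves. Its level ran from 118.8 to 1665.9 CPM in the 9 calves with high epithelial markers (median 509.6) and from 67.9 to 380.8 CPM in the other 21 (median 158.0). The 9 lowest codes held 266.6 to 646.1 CPM (median 380.8) and the other 21 calves 67.9 to 1665.9 CPM (median 136.9), of which 17 lay below 266.6 CPM. These are descriptions, since the codes were divided with values of these libraries known.

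With both divisions crossed, miR-10b was 489.3 to 646.1 CPM in the 4 calves with low codes and high epithelial markers. It was 266.6 to 380.8 CPM in the 5 with low codes and low markers, and 118.8 to 1665.9 CPM (median 309.6) in the 5 with other codes and high markers. In the 16 with neither, it was 67.9 to 288.8 CPM (median 132.3), and 15 of the 16 lay below 266.6 CPM. The 6 highest calves for miR-10b all had high epithelial markers, and each of the 10 highest had high markers, low codes or both. Since 7 of the 9 lowest codes were HI calves, code class and diet were partly confounded, and their parts in the level of miR-10b cannot be fully told apart.

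**Figure D3:**
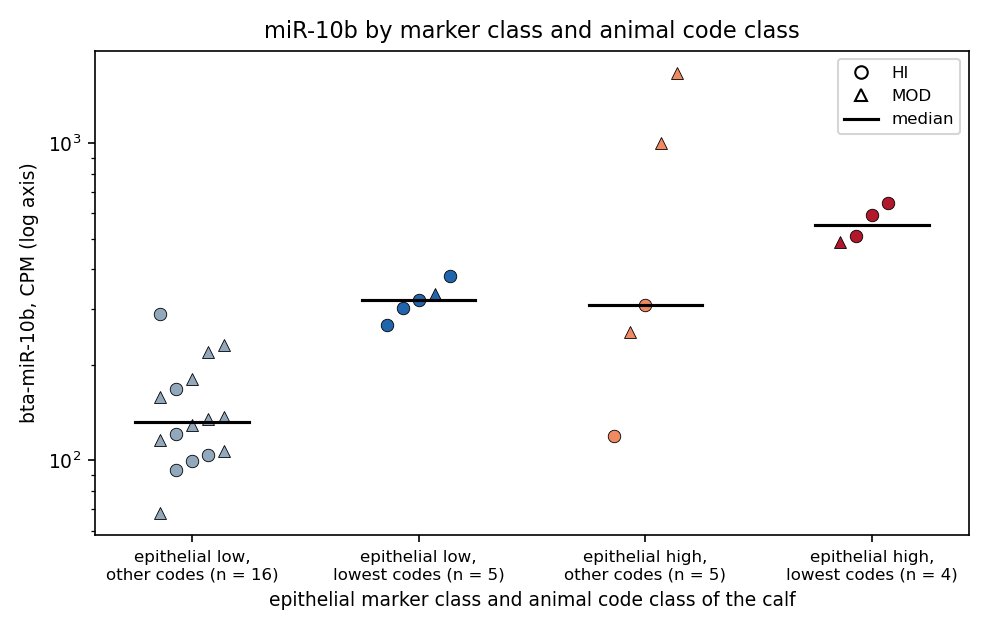
miR-10b in CPM (log axis) for calves divided by epithelial marker class and animal code class, circles for HI, triangles for MOD, bars at the medians. The 16 calves with low markers and other codes have the lowest median (132.3 CPM), and the 4 with high markers and low codes lie between 489.3 and 646.1 CPM with no overlap with them.

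The miR-10a level overlapped widely across both divisions. The 9 lowest codes spanned 60.9 to 104.1 CPM and the remaining calves 66.4 to 649.8 CPM. Epithelial-marker-high calves spanned 68.4 to 649.8 CPM and the low ones 60.9 to 174.1 CPM. In the 8 marker-high calves besides A73759, it lay between 68.4 and 148.5 CPM, inside the range of the low ones. By depth, the miR-10a level was 0.46 higher on the log2 scale in deeper than in shallower libraries (exact permutation p = 0.0411, adjusted p = 0.0823 over both miRNAs). That difference was 0.17 without A73759 (exact permutation p = 0.251). For miR-10b, the depth difference was 0.17 (exact permutation p = 0.712). All 9 lowest codes were shallower libraries, so depth and code class were partly confounded. Without those 9, the miR-10b difference was 0.82 (exact permutation p = 0.0938), and without A73759 alone it was -0.18 (exact permutation p = 0.670).

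Across calves, miR-10b was higher where the neuronal list was lower. The correlation of its log2 level with the list's mean log2 level was r = -0.68 (n = 30, permutation p = 6.0e-05, adjusted p = 0.0015) and rho = -0.65 (permutation p = 0.00012, adjusted p = 0.0030). Leaving out the 2 calves farthest from the list's median gave r = -0.66. It was -0.76 in shallower and -0.77 in deeper libraries, -0.84 in the lowest codes and -0.71 in the others. Within the epithelial classes it was weaker, at -0.35 in the 21 low calves (permutation p = 0.119) and -0.46 in the 9 high ones (exact permutation p = 0.219), so within neither class did this relation pass. The summed neuronal level was 15043 to 58931 CPM in marker-high calves (median 37395) and 47304 to 87561 CPM in the low ones (median 63565).

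The smooth muscle list, miR-143 and miR-145, which are abundant in vessel walls, was higher where miR-10b was higher, at r = 0.56 (n = 30, permutation p = 0.00126, adjusted p = 0.0157). The rank correlation was 0.48 (permutation p = 0.0084, adjusted p = 0.105), which did not pass. With libraries scaled by size only, r was 0.33 (permutation p = 0.0768), and the call was lost. It was 0.06 in the 21 calves with low epithelial markers and 0.65 in the 9 with high ones. In the 9 marker-high calves, the level of miR-10b had r = 0.63 (exact permutation p = 0.0722, adjusted p = 0.224) and rho = 0.70 (exact permutation p = 0.0433, adjusted p = 0.193) with the epithelial list, against r = 0.05 (permutation p = 0.831) in the 21 low ones.

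The fibroblast and pericyte list (the miR-199 family and miR-214) fell into 7 high and 23 low calves, with r of 0.78 (exact permutation p = 0.0373, adjusted p = 0.155) and 0.18 (permutation p = 0.411) with miR-10b. Without the 2 farthest of the 7 high calves, r was 0.29 (exact permutation p = 0.625). Its summed level was 333 to 2157 CPM in epithelial-marker-high calves and 86.2 to 295 CPM in the low ones, so the lists moved together. Of all 25 relations, those of miR-10b with the neuronal and smooth muscle lists passed an adjusted p of 0.05 by Pearson's r, and the first alone by rho. None of the relations of miR-10a did. Within the 21 marker-low and the 9 marker-high calves, 2 of 16 values of miR-10b with the 8 lists that were not split into clusters had an unadjusted p below 0.05. The oligodendrocyte list (miR-219 and miR-338, known from myelin-forming cells) had r = 0.59 in the 21 low calves (permutation p = 0.00433), against -0.11 over all 30 and -0.71 in the 9 lowest codes (exact permutation p = 0.0363). Among the low calves, its summed level had a median of 5402 CPM in the 5 with the lowest codes, where miR-10b was also higher, and 2922 CPM in the other 16. The endothelial list (both arms of miR-126) had r = 0.74 in the 9 high calves (exact permutation p = 0.0243), against 0.39 over all 30 and -0.21 over all 30 with library size only. Which cells carried miR-10b was not tested.

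**Figure D4:**
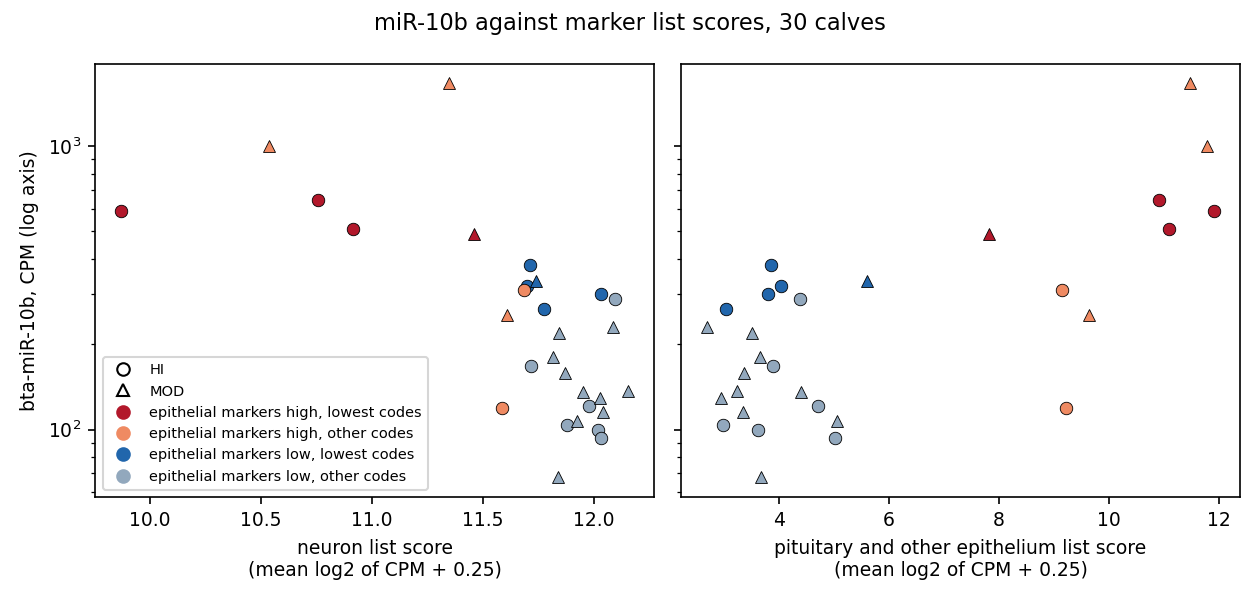
miR-10b in CPM (log axis) against the mean log2(CPM + 0.25) of the neuronal list (left) and of the pituitary and other epithelium list (right), 1 point per calf, circles for HI and triangles for MOD. The right panel shows 2 clusters of calves, 9 high and 21 low, and the left panel shows that the high cluster supplies the calves with the lowest neuronal levels (r = -0.68 over 30 calves, -0.35 within the 21).

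The miRNAs whose log2 levels were most like that of miR-10b over the 30 libraries were miR-2285k (r = 0.86), miR-26b (0.85), miR-151-3p (0.84), let-7i (0.84) and miR-2285da (0.82). Their medians ran from 27.8 CPM for miR-2285da and 42.1 CPM for miR-2285k to 3445 CPM for miR-151-3p, 6423 CPM for miR-26b and 7034 CPM for let-7i, and 4 of the 5 stayed in the first 5 without A73759. In the 21 calves with low epithelial markers, r was 0.68, 0.72, 0.77, 0.69 and 0.59 in the same order. For miR-10a, the closest were miR-362-5p (0.53), miR-148b (0.52), miR-503-5p (0.51), miR-500 (0.48) and miR-30c (0.47), of which 2 stayed without A73759. No miRNA therefore followed miR-10a as closely as these followed miR-10b. The points share libraries and their scaling, and the values are given as a description.

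The miR-196 members were close to the limit of detection. For miR-196a, 5 of 30 libraries held any reads, 3 HI and 2 MOD. These were 1 read in A37824, 1 in A42931 and 2 in A47858 among HI calves, and 1 in A57867 and a fractional value of 1.5 in A73759 among MOD calves. For miR-196b, 4 of 30 libraries held reads, 1 in A93760 (HI), 1 in A12937, 2 in A61973 and 38 in A73759 (all MOD). The libraries at 0 allow up to 0.160 to 0.477 reads per 1000000 for miR-196a and 0.142 to 0.477 for miR-196b, at 3 reads of the total. Intervals and limits cover counting error only, since reads without molecular identifiers are not independent molecules.

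Over the 29 libraries other than A73759, the summed reads gave 0.0159 reads per 1000000 for miR-196a (5 reads, 95% Clopper-Pearson interval 0.00516 to 0.0371) and 0.0127 for miR-196b (4 reads, interval 0.00347 to 0.0326). In A73759, miR-196b was at 2.14 reads per 1000000 (interval 1.51 to 2.93), and the highest upper bound of any other library was 1.03. The HI minus MOD difference on the log2(CPM + 0.25) scale was 0.06 for miR-196a (permutation p = 0.403) and -0.32 for miR-196b (permutation p = 0.225), and without A73759 it was 0.09 (permutation p = 0.279) and -0.10 (permutation p = 0.347). No diet difference was detectable for either at this depth. miR-615 had 0 reads in all 30 libraries, which allows up to 0.142 to 0.477 reads per 1000000.

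**Figure D5:**
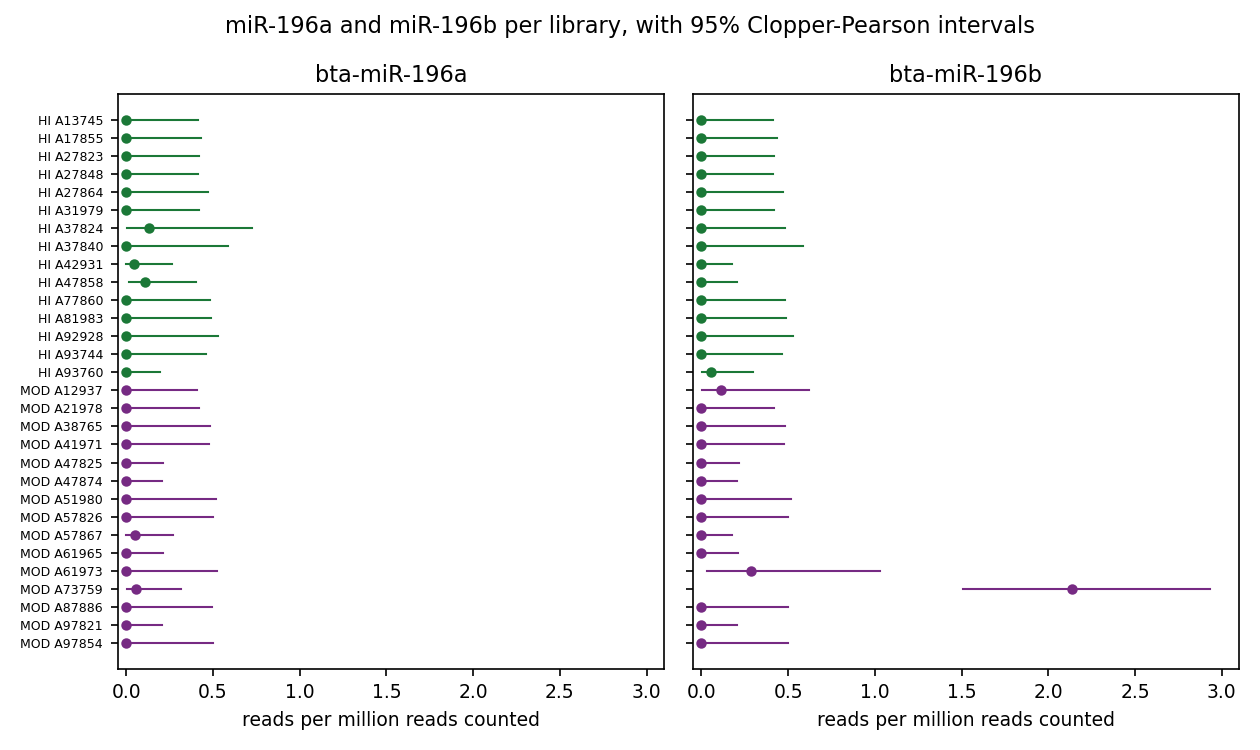
miR-196a (left) and miR-196b (right) in reads per 1000000 reads counted in each of 30 libraries, with exact 95% intervals, HI in green and MOD in purple. Nearly all libraries are at 0, and A73759 alone is set apart, at 2.14 reads per 1000000 for miR-196b and with an interval that overlaps no other.

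In calf A73759, 3 of the 4 members, from the HOXA, HOXB and HOXD clusters, were each at their highest of all libraries. miR-10a was 6.89 times the median of all calves and miR-10b 7.41 times, where the next highest calves were A97821 for miR-10a (174.1 CPM) and A41971 for miR-10b (1003.8 CPM). By the size of the rise over the median in this library, miR-10b was 13th and miR-10a 14th of the 476 tested miRNAs, among 30 that exceeded 2-fold. miR-196b held 38 of the 42 reads it had in the whole series in this library. miR-196a, at 1.5 reads, did not stand apart.

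In this library, 2 marker lists were several times their median over calves. The epithelial list summed to 58771 CPM, 63.8 times the median and 3rd of 30, and the fibroblast and pericyte list to 1670 CPM, 9.91 times the median and 2nd. The leukocyte list was 1.32 times its median (3rd of 30), the endothelial list 1.31 times and the smooth muscle list 1.32 times. The skeletal muscle list was 1.23 times, and the erythroid, choroid plexus, oligodendrocyte and neuronal lists were 0.816, 0.793, 0.768 and 0.637 times their medians. In A41971, the epithelial list was 83.8 times and the fibroblast and pericyte list 9.65 times its median, with the smooth muscle list at its highest, 3.30 times. There, miR-10b was 1003.8 CPM, whereas miR-10a was 99.4 CPM and neither miR-196a nor miR-196b had a read. In HI calf A37824, both lists were at their highest, 99.0 and 12.8 times their medians, with miR-10b at 591.1 CPM, miR-10a at 104.1 CPM, 1 read of miR-196a and none of miR-196b. These were the 3 calves highest in both lists, and A73759 alone of them was high in miR-10a and miR-196b. The part of other cell types in the levels of A73759 was not tested.

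The miR-99 and miR-100 miRNAs, relatives of miR-10 by sequence that lie outside the HOX clusters, were read at far higher levels. This compares reads, and amounts of different miRNAs were not measured. The level of miR-99a-5p was 1320 to 4450 CPM (median 1761), of miR-99b 4054 to 13106 CPM (median 4934) and of miR-100 3075 to 8987 CPM (median 3829). Their levels were also laid out by class. The level of miR-99a-5p was 2738 to 4450 CPM in the 4 calves with low codes and high epithelial markers and 1320 to 1904 CPM in the 16 with neither. For miR-99b these ranges were 9632 to 13106 and 4054 to 5919 CPM, and for miR-100 they were 7073 to 8896 and 3075 to 5004 CPM. In the 5 calves with low codes and low markers, miR-99a-5p was 1429 to 2063, miR-99b 7014 to 8834 and miR-100 4867 to 8987 CPM. In the 5 with high markers and other codes, they were 1654 to 2566, 4678 to 7705 and 3299 to 3740 CPM. The former overlapped the 16 for miR-99a-5p and miR-100 and lay above them for miR-99b, and the latter overlapped the 16 for miR-99a-5p and miR-99b and lay within their range for miR-100. Of these miRNAs, 0 of 3 were called between diets, with limma log2 fold changes of 0.11 (adjusted p = 0.982), 0.29 (adjusted p = 0.912) and 0.28 (adjusted p = 0.912).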

How the data were processed

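Small RNA libraries of the ARC of 30 calves were sequenced as single-end reads. The authors trimmed reads, kept those of miRNA length, counted mature bovine miRNAs with miRDeep2 on assembly ARS-UCD1.2 and deposited 1 table, in which the values are a signal in the form of CPM over library sizes scaled by edgeR. The submitters' processing notes also name FastQC 0.11.8, cutadapt 2.6 and edgeR 3.5. How reads matching several miRNAs were divided is not given in the sources used here.

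Each library's values were whole multiples of the value of 1 read for 94.5 to 97.9% of the miRNAs checked (tolerance 0.02 reads), which gave the depth of each library. Library A31979 did not reach the share needed (95% of low values) and was left out of count tests, leaving 29. miRNAs with at least 1.16 CPM in at least 14 libraries were tested (476). The diet model was limma 3.58.1 with a mean-variance trend on log2(CPM + 0.25), without covariates, in R 4.3.3, with Benjamini-Hochberg adjustment over all 476. The count tests edgeR 4.0.16 (quasi-likelihood) and DESeq2 1.42.0, other scalings, other pseudocounts, no filter, covariates and the removal of each calf in turn were the alternatives. Single values were compared by 2-sided permutation tests, exact where they could be enumerated and otherwise with 100000 resamples (scipy 1.17.1). The tests were checked on simulated data.

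The members were named from their HOX clusters, similar miRNAs by the 5 largest correlations. Members, lists and calf classes were chosen with earlier results of these data known. Low marker classes were separated from high ones at the largest gap in the list's mean log2 level. A list was split only where that gap was wide and left enough calves on each side. The gap was 24.2% of the range for the epithelial list. It was wider for the neuronal (29.3%), endothelial (25.3%) and erythroid (36.9%) lists, which were kept whole because too few calves lay on one side. The 30 samples are 1 per calf, so that n counts calves. Gene neighbours came from RefSeq by name. The reads behind a level set its counting error only.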

Additional observations from a re-analysis of the deposited data

How the results depend on the processing

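No paired analysis was possible because each calf had 1 diet and the labels pair no calf of one diet with a calf of the other. The members called between diets numbered 0 under all 18 alternatives and 0 without any single calf. Over all tested miRNAs, the count was 0 in limma, 1 in DESeq2 and 0 to 1 without each calf, with 1 when HI calf A77860 or MOD calf A97854 was left out. Without each calf in turn, the log2 fold change ran from -0.24 to -0.01 for miR-10a and from -0.059 to 0.27 for miR-10b (6 of 30 changed sign), and the mean log2 of miR-10b over miR-10a from 1.13 to 1.25. It ran from 0.01 to 0.09 for miR-196a and from -0.34 to -0.10 for miR-196b. The sign turned for miR-10a in DESeq2 (0.029), and for miR-10b in edgeR (-0.35), DESeq2 (-0.35), with a term for the lowest codes (-0.38), with the epithelial list as a covariate (-0.088), without the 9 lowest codes (-0.50) and with terms for the codes and the epithelial class (-0.37). No p passed in any of these fits, with adjusted p from 0.790 to 0.999 for miR-10a and from 0.839 to 0.999 for miR-10b over all alternatives, the removal of each calf included. The lowest value for miR-10a over the alternatives was -0.43, in edgeR, against -0.19 in limma. The edgeR and DESeq2 fits also lacked HI calf A31979. The depth difference of miR-10a lost its unadjusted call without the lowest codes (0.36) and without A73759 (0.17), and that of miR-10b was 0.82 without the lowest codes and turned without A73759 (-0.18). The correlation of miR-10a with miR-10b, past 0.05 by its unadjusted p, was 0.19 with library size only, -0.061 without the 2 farthest calves, 0.083 by rank, -0.11 in shallower libraries, 0.28 in the lowest codes, 0.67 in the other 21 calves (p = 0.00775), -0.044 without A73759, -0.062 in epithelial-marker-low and 0.56 in marker-high calves (-0.034 without A73759). The correlation of miR-10b with smooth muscle lost its call with library size only (0.33, permutation p = 0.0768). The cause was not tested in any of these. Chosen after seeing the data were the fits with both terms or without marker-high calves, the comparisons within sets and the correlations without A73759 or within marker classes, the order in the 16 calves with neither low codes nor high markers, and all alternatives for the depth difference. The other 22 relations ranged from r = -0.37 to 0.78, and 47 of their 206 alternative values changed sign. Depth limits miR-196a, miR-196b and miR-615, since a library at 0 cannot show a level under its 3-read limit, and 1 library holds most miR-196b reads.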
